A study of Homo sapiens with 6 samples.

Results

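The 10 genes described here encode the machinery by which a cell leaves G1: the D-type cyclins CCND1, CCND2 and CCND3, the cyclin-dependent kinases CDK2, CDK4 and CDK6, the CDK inhibitors CDKN1A (p21), CDKN1B (p27) and CDKN2C (p18), and the retinoblastoma gene RB1. They were taken by gene symbol, but chosen with earlier results of these data known. All 10 were found among the 58735 genes of the count table. The RNA came from Huh7, a long-established line of human liver cancer cells, in 2 groups of 3 libraries each. The shITGB5 cells carried a short hairpin RNA against ITGB5, the integrin beta 5 subunit, and the shcontrol cells carried a control hairpin. Both groups were Huh7 cells grown in serum-containing medium, and the labels name no drug. Nothing in the labels ties the replicates to separate cultures, so p-values reflect a replicate spread that may be technical.

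D-type cyclins rise when growth factors signal, bind CDK4 or CDK6, and the resulting kinase phosphorylates the RB1 protein. Phosphorylated RB1 releases E2F transcription factors, which switch on genes for DNA replication, and cyclin E with CDK2 completes the step. CDKN2C and the other INK4 proteins bind CDK4 and CDK6 directly, whereas CDKN1A and CDKN1B bind cyclin-kinase complexes. Integrin and EGF receptor signalling are known inputs to cyclin D1, and CCND1 is amplified in a subset of liver cancers.

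Library totals were 15777922 to 18011313 counts. ITGB5, the targeted gene, averaged 176.1 ± 4.30 CPM in shITGB5 libraries and 211.8 ± 6.35 CPM in shcontrol libraries (SD, n = 3 each), a fall of 16.8% (edgeR adjusted p = 2.13e-09, exact two-sided permutation p = 0.1, the smallest that 3 libraries against 3 allow). All 6 libraries thus still held abundant ITGB5 RNA. Hepatocyte and hepatoma markers summed to 14000.6 to 14160.8 CPM with the ITGB5 hairpin and 13029.3 to 13223.5 CPM in controls. All 12 were tested and 7 rose, against 8.31% of all genes tested. The endothelial list summed to at most 5.79 and 6.01 CPM and the blood and immune list to at most 42.9 and 38.0 CPM, with KDR and HBA1 at 0 in every library. The fibroblast and stellate list summed to 343.1 to 355.4 CPM in shITGB5 and 307.7 to 321.6 CPM in shcontrol libraries, mostly from LUM, which rose, and COL1A2. Their part in the results was not tested.

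Of the 10 genes, 9 had enough counts to be tested, and CCND2 had none. CCND1 and CDK6 rose, RB1 fell, and 6 did not pass the threshold (edgeR, Benjamini-Hochberg adjusted p under 0.05 over 16577 genes). Over all genes tested, 8.31% rose and 6.74% fell by the same rule. The log2 changes of the 9 genes ran from -0.15 to 0.18 with a median of -0.02, against a median of -3.64e-05 over all genes. In 4 of the 9 genes the 3 shITGB5 libraries did not overlap the 3 shcontrol libraries, whereas 28.5% of all genes tested had no overlap. Changes were small throughout: no member reached 1.2-fold in either direction.

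**Figure D1:**
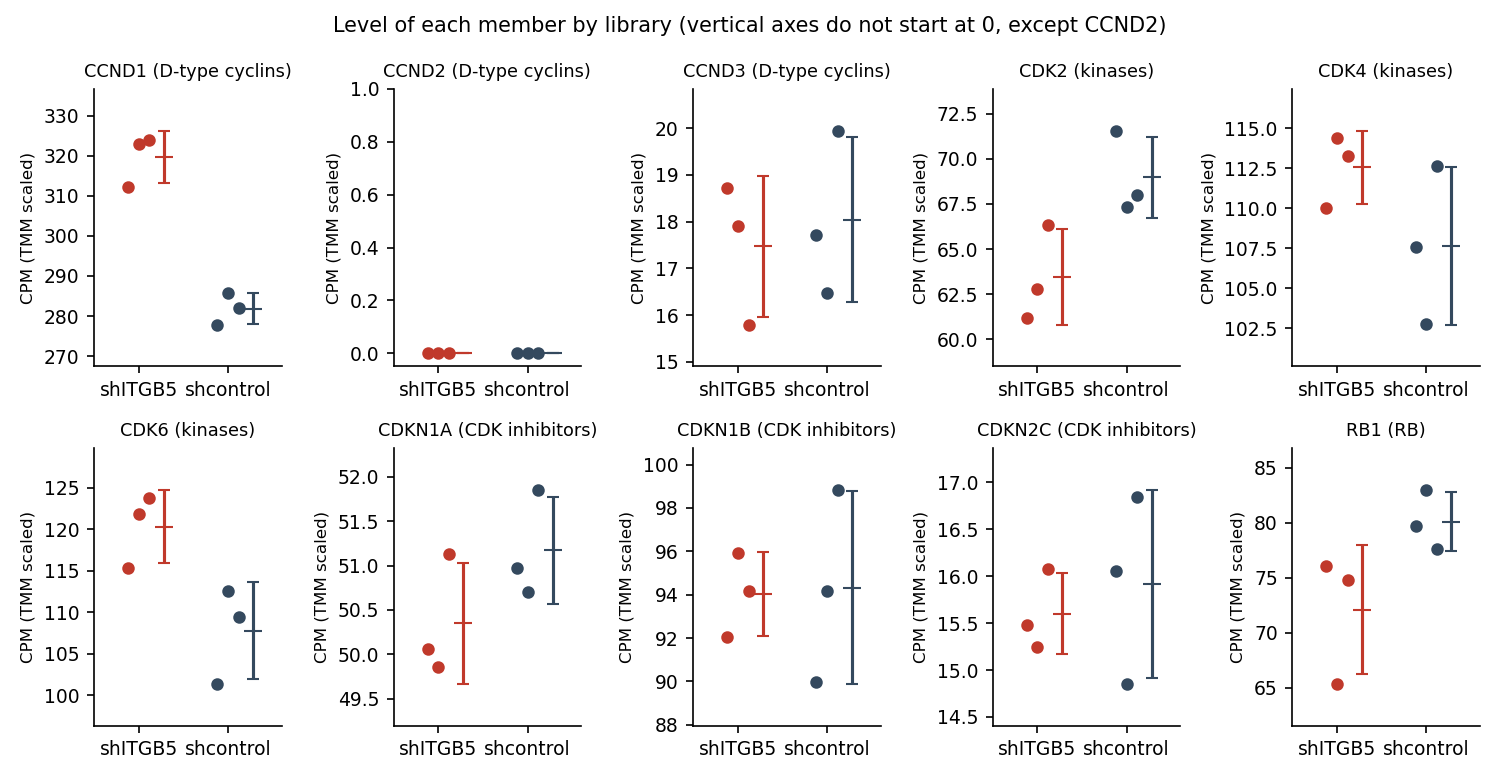
Level of each of the 10 genes in CPM (TMM scaled), 1 point per library, with the shITGB5 libraries on the left and the shcontrol libraries on the right; the dash and bar give the mean and SD of 3 libraries. CCND1 and CDK6 lie higher, and CDK2 and RB1 lower, in all 3 shITGB5 libraries than in all 3 shcontrol libraries, and CCND2 is at 0 throughout; the vertical axes do not start at 0, except for CCND2.

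Among the cyclins, CCND1 carried nearly all of the counted D-type signal and rose. CCND1 (ENSG00000110092, chromosome 11, 69641087 to 69654474, plus strand, GRCh38) lay at 312.2, 323.0 and 324.0 CPM in shITGB5 libraries, against 277.8, 285.7 and 281.9 CPM in shcontrol libraries. All 3 shITGB5 libraries were above all 3 controls, and the gap between the groups was wider than the range within either. The rise came to 13.4% (95% interval 9.15% to 17.9%), which on the log2 scale is 0.18 (SE 0.028, edgeR adjusted p = 8.37e-07). LTO1 overlaps CCND1 on the opposite strand with counts equal to 17.6% of those of CCND1, and it was not called (log2 change -0.11, edgeR adjusted p = 0.187). Whether counting used strand is not known here, so reads in the overlap cannot be told apart.

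CCND3, the D-type cyclin best known from lymphoid cells, was weakly expressed and did not differ beyond its spread. It lay at 18.7, 17.9 and 15.8 CPM in shITGB5 libraries and 17.7, 16.5 and 19.9 CPM in shcontrol libraries, and the groups overlapped. The log2 change was -0.04 (95% interval -0.23 to 0.14, edgeR adjusted p = 0.830), and at 276 to 336 counts per library that interval holds a fall of the size of the CCND1 rise, though not such a rise. CCND2 (ENSG00000118971, chromosome 12, 4273772 to 4305350), which serves as the main D-type cyclin in some other tissues, had a count of 0 in all 6 libraries, which allows up to 0.167 to 0.182 CPM in shITGB5 and 0.172 to 0.190 CPM in shcontrol libraries for counting error alone. Its antisense neighbour CCND2-AS1 was also at 0, as was AC008012.1, a protein-coding gene that overlaps CCND2 on the same strand. Whether reads shared by overlapping genes were counted is not known here. A count of 0 therefore does not show that CCND2 RNA was absent. Per kilobase of gene length, CCND1 made up 95.2%, 95.6% and 96.1% of the D-type cyclin level in shITGB5 libraries and 94.96%, 95.4% and 94.4% in shcontrol libraries. These shares take CCND2 as 0, and they overlapped between the groups.

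Of the kinases, CDK6 was the one that passed the test. CDK6 (ENSG00000105810, chromosome 7, 92604921 to 92836594, minus strand) lay at 115.4, 121.8 and 123.8 CPM in shITGB5 libraries, against 101.4, 112.6 and 109.4 CPM in shcontrol libraries. The lowest shITGB5 library stood 2.76 CPM above the highest control, and shcontrol replicate 1 was the lowest of the 6. CDK6 rose by 11.7% (95% interval on the log2 scale 0.08 to 0.24), or 0.16 on the log2 scale (SE 0.040, edgeR adjusted p = 0.00287). Without shcontrol replicate 1 the log2 change was 0.11 and missed the threshold (edgeR adjusted p = 0.0834).

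CDK4, the closest relative of CDK6, lay at 110.0, 114.4 and 113.3 CPM in shITGB5 libraries and 107.6, 102.8 and 112.6 CPM in shcontrol libraries, and the groups overlapped. Its log2 change was 0.06 (95% interval -0.01 to 0.14, edgeR adjusted p = 0.318). With a library left out it ranged from 0.03 (without shcontrol replicate 2) to 0.10 (without shcontrol replicate 3). The upper end of the CDK4 interval, 0.14, lies below the CDK6 estimate of 0.16, and whether the pair changed by different amounts was not tested. By library, the ratio of CDK6 to CDK4 in FPKM was 0.271, 0.275 and 0.282 in shITGB5 and 0.244, 0.283 and 0.251 in shcontrol. Here shcontrol replicate 2 exceeded every shITGB5 library, so the ratio did not separate the groups. TSPAN31 and another gene on the opposite strand overlap CDK4 with counts equal to 10.46% and 9.77% of those of CDK4, and neither was called.

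CDK2, which drives entry into S phase with cyclin E, lay at 61.2, 62.8 and 66.4 CPM in shITGB5 libraries and 71.6, 67.3 and 68.0 CPM in shcontrol libraries. Every shITGB5 library was below every control, by as little as 0.985 CPM between the nearest pair. CDK2 differed by -0.12 on the log2 scale (SE 0.049, 95% interval -0.22 to -0.02, unadjusted). It did not pass after adjustment (edgeR adjusted p = 0.0919), nor in any of the 14 alternatives without a fold minimum (range of log2 change -0.15 to -0.09).

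**Figure D2:**
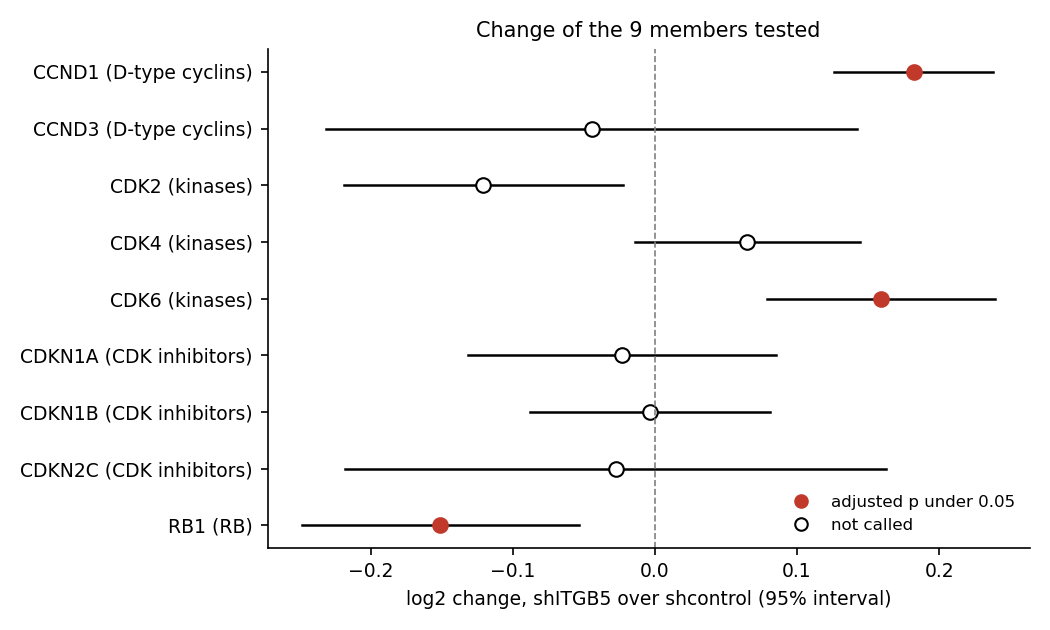
Log2 change of the 9 tested genes, shITGB5 over shcontrol, with 95% intervals that are not adjusted for the number of genes; filled points passed an edgeR adjusted p of 0.05. CCND1 (0.18) and CDK6 (0.16) lie to the right, RB1 (-0.15) and CDK2 (-0.12) to the left, and the 3 CDK inhibitors near 0.

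The sequences around CDK6 and CDK4 are shown because these kinases are both partners of cyclin D1, and of the pair CDK6 passed the test. In RefSeq (GRCh38.p14), windows around the start site lie on the minus strand at chr7:92836524-92836823 for CDK6 and chr12:57752261-57752560 for CDK4. Capitals mark matches on either strand to GGGCGG, the Sp1 box, or CACGTG, the E-box bound by MYC and MAX.

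CDK6 promoter: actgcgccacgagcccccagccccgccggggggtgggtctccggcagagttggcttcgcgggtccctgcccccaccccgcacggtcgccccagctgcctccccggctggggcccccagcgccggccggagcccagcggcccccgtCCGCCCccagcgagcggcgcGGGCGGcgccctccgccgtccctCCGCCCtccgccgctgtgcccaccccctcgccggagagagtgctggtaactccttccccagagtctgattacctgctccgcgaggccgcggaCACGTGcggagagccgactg
CDK4 promoter: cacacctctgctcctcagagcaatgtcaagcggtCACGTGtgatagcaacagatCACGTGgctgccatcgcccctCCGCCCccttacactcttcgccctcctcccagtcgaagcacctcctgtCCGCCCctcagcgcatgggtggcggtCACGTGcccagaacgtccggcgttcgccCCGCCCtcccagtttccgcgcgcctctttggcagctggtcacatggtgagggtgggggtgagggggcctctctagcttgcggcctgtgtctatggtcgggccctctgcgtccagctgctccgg

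Each window held 3 Sp1 boxes, which 44.95% of the 35116 RefSeq promoter windows hold at least once. CDK4 held 3 E-boxes and CDK6 held 1, against 7.26% of all windows with any, and the E-box was added to the search after the CDK4 window had been seen. A further CDK6 window, not printed, held none of the motifs searched. The E2F word TTCCCGC, the AP-1 word TGANTCA and the CRE word TGACGTCA matched in neither window. Among the other members with a listed window (CCND3, CDKN1A, CDKN1B, CDKN2C and RB1), 1 window of CDKN2C held the E2F word, with 2 matches (6.55% of all windows), its other 2 windows held 1 E-box each, and a downstream RB1 window held 1 AP-1 word (7.71%). Sp1 boxes also lay in windows of CCND3 (5 and 4), CDKN1A (4), CDKN1B (1) and CDKN2C (6 and 1), none of which was called. None of the motifs overlapped another in the windows printed. The promoter set used here listed no window for CCND1, CCND2 or CDK2, so their promoters were not searched.

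A second stretch concerns words of 7 bases in 3′ untranslated regions (UTRs) that an earlier analysis of these same libraries had linked to changed genes. TCGGAGA was linked to genes that rose, and so was the word CGGAGAA, while AGACCAA was linked to genes that fell, and so was the word GACCAAA. The principal GENCODE 29 transcripts of the 10 genes were searched for all 4. CDK6 held CGGAGAA once, starting at base 31 of a 3′ UTR of 10219 bases (chr7:92615092-92615120, minus strand). CCND2, which had no counts, held AGACCAA once (chr12:4300808-4300836, plus strand).

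CDK6 site: agctgatcctgCGGAGAAcacccttggtg
CCND2 site: gaggcagatggAGACCAAgggtgggatcc

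Capitals mark the word. Among 179 tested 3′ UTRs within 20% of the CDK6 length, 10.1% held CGGAGAA, and among 13223 of any length 2.07% did. For AGACCAA the share was 26.7% of 783 regions near the CCND2 length. CCND1 and RB1, the other members that passed the test, held none of the 4 words. Since those words were found with these libraries, the CDK6 match is a description and no independent support.

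The 3 CDK inhibitors were expressed at steady levels in both groups, and none was called. CDKN1A, the p21 gene and a classic p53 target, lay at 50.1, 49.9 and 51.1 CPM in shITGB5 libraries and 51.0, 50.7 and 51.9 CPM in shcontrol libraries. The groups overlapped and all 6 values fell within 1.99 CPM of each other. Its log2 change was -0.02 (edgeR adjusted p = 0.852), and the 95% interval reached from -8.70% to 6.08%. CDKN1B, the p27 gene, lay at 92.0, 95.9 and 94.2 CPM in shITGB5 libraries and 90.0, 94.2 and 98.8 CPM in shcontrol libraries. Its interval, -5.91% to 5.76%, was the narrowest of the 3 (edgeR adjusted p = 0.973). CDKN2C, the INK4 inhibitor p18, lay at 15.5, 15.2 and 16.1 CPM in shITGB5 libraries and 16.1, 14.9 and 16.8 CPM in shcontrol libraries. At 249 to 283 counts per library its interval was wide, -14.0% to 11.9% (edgeR adjusted p = 0.903). For CDKN1A and CDKN1B the intervals thus leave out changes as large as the 13.4% rise of CCND1, whereas for CDKN2C a fall of that size lies inside. By library, the FPKM ratio of CCND1 to CDKN1B was 1.97, 1.96 and 2.002 in shITGB5 and 1.80, 1.77 and 1.66 in shcontrol. The groups did not overlap, which mostly restates the CCND1 rise, since CDKN1B was not called.

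RB1, the pocket protein that the cyclin D kinases inactivate, was lower. RB1 (ENSG00000139687, chromosome 13, 48303726 to 48599436, plus strand) lay at 76.1, 65.3 and 74.8 CPM in shITGB5 libraries, against 79.7, 83.0 and 77.6 CPM in shcontrol libraries. The groups did not overlap, but shITGB5 replicate 2 stood apart below the rest, and the nearest libraries of the groups lay 1.56 CPM apart. The fall was 9.93% (95% interval -15.8% to -3.64%), or -0.15 on the log2 scale (SE 0.049, edgeR adjusted p = 0.0245). This call depended on single libraries: it missed the threshold without shITGB5 replicate 2 (log2 change -0.09, edgeR adjusted p = 0.288), without shcontrol replicate 1 (-0.16, 0.0536) and without shcontrol replicate 2 (-0.13, 0.130). DESeq2 gave an adjusted p of 0.0643 at nearly the same change. LPAR6 and RCBTB2, on the opposite strand within the RB1 locus, had counts equal to 14.0% and 6.72% of those of RB1, and neither was called.

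**Figure D3:**
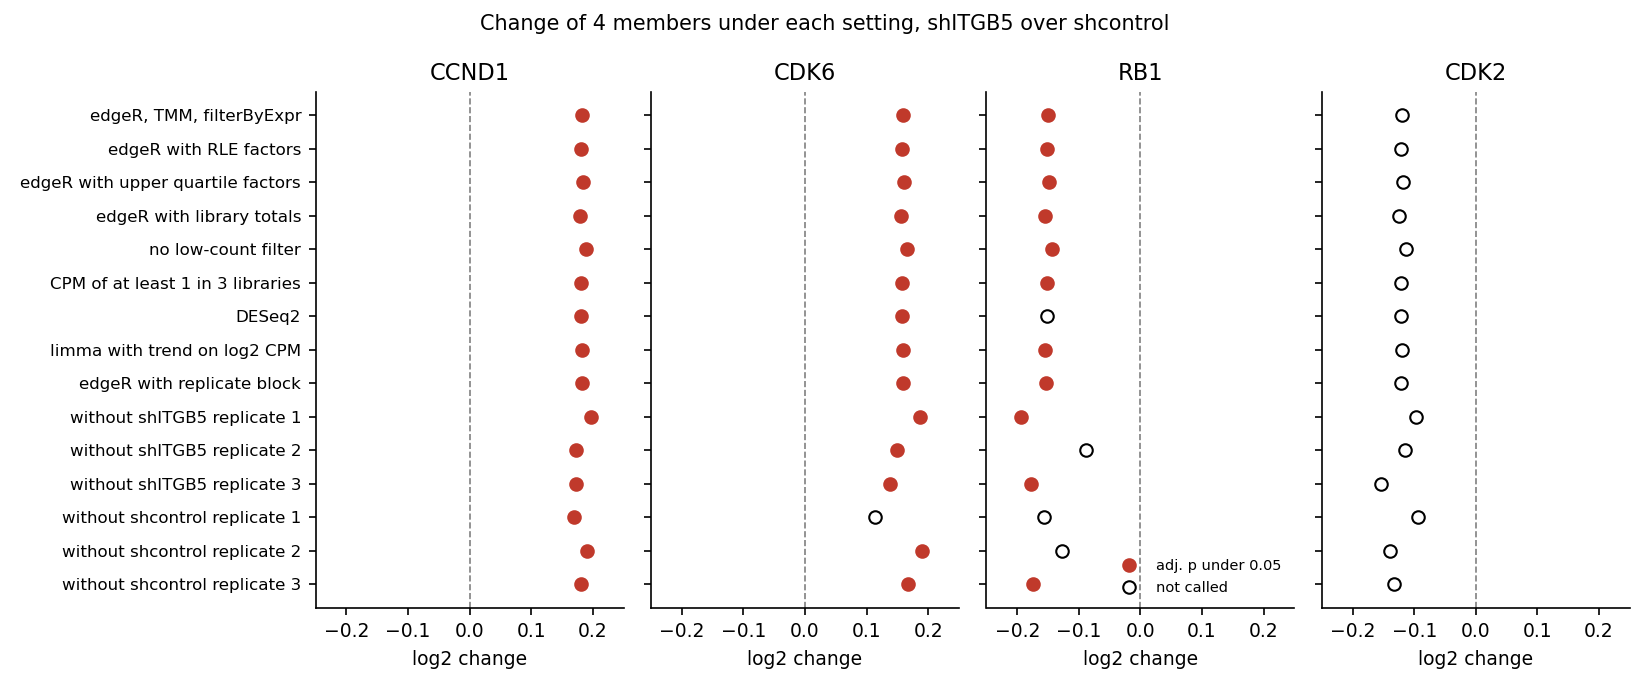
Log2 change of CCND1, CDK6, RB1 and CDK2, shITGB5 over shcontrol, under the edgeR test and 14 alternatives without a fold minimum (rows). Filled points passed an adjusted p of 0.05. Against a fold of 1.2, not drawn, none of these genes passed. CCND1 passed in all 14, CDK6 in 13, RB1 in 10 and CDK2 in none, and each kept its sign.

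Levels of different genes were compared as FPKM, CPM per kilobase of gene length. In shITGB5 libraries the order was CCND1 (66.2 ± 1.35), CDK4 (35.5 ± 0.720), CDKN1B (33.5 ± 0.689), CDKN1A (16.5 ± 0.224), CDK2 (16.3 ± 0.678), RB1 (11.2 ± 0.908), CDK6 (9.81 ± 0.359), CDKN2C (4.70 ± 0.129) and CCND3 (3.01 ± 0.260), all as mean FPKM ± SD with n = 3. In shcontrol libraries CCND1 stood at 58.3 ± 0.814 FPKM and CDK2 stood above CDKN1A, at 17.7 ± 0.582 against 16.8 ± 0.198, while the rest kept this order. CDKN1A and CDK2 overlapped in shITGB5 libraries, and CDK4 and CDKN1B overlapped in shcontrol libraries, so those neighbours are not ordered beyond their spread. The order also rests on the deposited gene lengths, which need not be the lengths of the transcripts expressed. CDK6 matched CDK4 in counts but not per length, since its gene length in the table is 12260 bases against 3168. It made up 21.3% to 22.0% of the CDK4 and CDK6 level per length in shITGB5 libraries and 19.6% to 22.1% in shcontrol libraries.

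**Figure D4:**
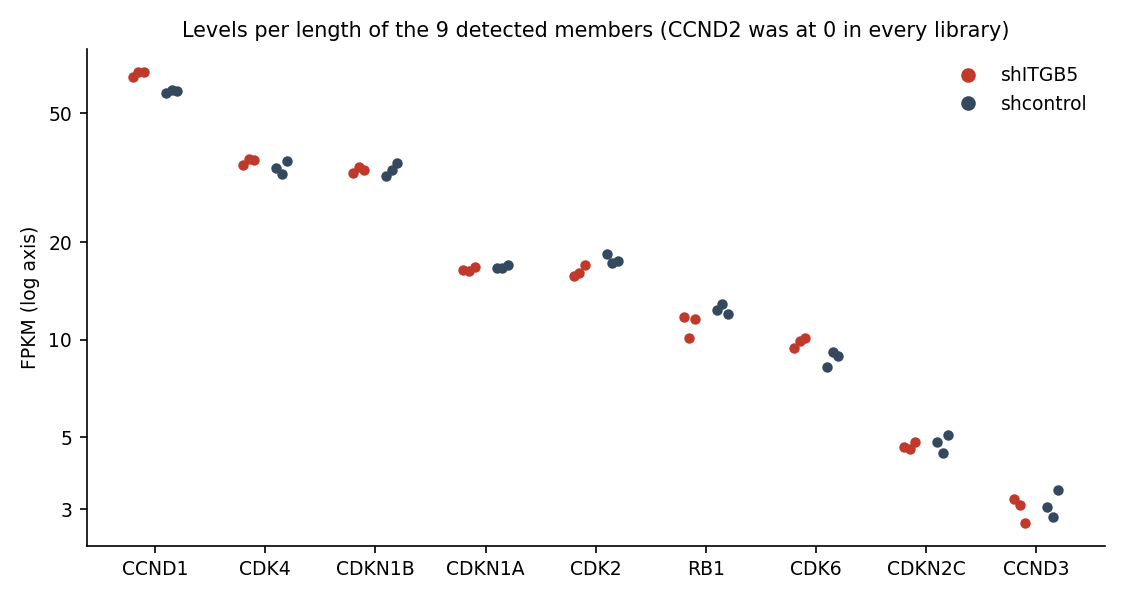
FPKM of the 9 detected genes on a log axis, 1 point per library, shITGB5 on the left of each pair and shcontrol on the right, ordered by the shITGB5 mean. CCND1 lies between 57.5 and 67.1 FPKM in all 6 libraries and CCND3 between 2.72 and 3.44 FPKM.

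The partners and regulators around these genes were described with lists chosen with earlier results of these data known. The counts of calls in each list are to be read against all genes tested, of which 8.31% rose and 6.74% fell. In bulk RNA, a change in the share of cells in a phase and a change in RNA per cell cannot be told apart. Among 9 tested cyclins and kinases that act beside the members, CCNA2 (-0.22 on the log2 scale), the cyclin of S and G2 phase, and CDK1 (-0.18), the mitotic kinase, fell, and 7 did not pass (edgeR adjusted p = 1.16e-06 and 4.92e-05). CCNA2 overlaps EXOSC9 on the other strand, with counts equal to 33.7% of its own, and EXOSC9 was also called lower (-0.24, edgeR adjusted p = 0.00213). The G1 cyclins CCNE1 and CCNE2, named after their values were seen, gave log2 changes of -0.02 (95% interval -0.17 to 0.13) and 0.05 (-0.22 to 0.31) and were not called (edgeR adjusted p = 0.916 and 0.878). CCNE1 averaged 25.4 ± 0.916 CPM in shITGB5 and 25.8 ± 0.572 CPM in shcontrol libraries (SD, n = 3 each).

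Of the 5 further CDK inhibitors, CDKN1C (p57, relative of p21 and p27) and CDKN3, a phosphatase that acts on CDKs, fell, and the INK4 genes CDKN2A, CDKN2B and CDKN2D did not pass. Of all genes tested, 6.74% fell by the same rule. CDKN1C lay at 5.23, 4.78 and 3.12 CPM in shITGB5 libraries and 7.11, 6.74 and 6.77 CPM in shcontrol libraries. It was lower in every shITGB5 library, most of all in replicate 3, at -0.65 on the log2 scale (SE 0.166, edgeR adjusted p = 0.00317). Without shITGB5 replicate 3 its log2 change was -0.46 and missed the threshold (edgeR adjusted p = 0.0666). CDKN3 had a log2 change of -0.18 (edgeR adjusted p = 0.0108), lost without shITGB5 replicate 2 or shcontrol replicate 1 (edgeR adjusted p = 0.0620 and 0.0838). CDKN2A, named after its values were seen, averaged 61.1 ± 3.76 CPM in shITGB5 and 58.7 ± 1.43 CPM in shcontrol libraries (SD, n = 3 each), a log2 change of 0.06.

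Downstream of the kinases, 5 of 17 pocket protein, E2F, DP and DREAM genes rose, 2 fell and 10 did not pass. Their median log2 change was 0.02. By the same rule 8.31% of all genes tested rose and 6.74% fell. RBL1 (p107), a pocket protein that is itself an E2F target, rose (0.32, edgeR adjusted p = 0.000865), as did the repressor E2F8 (0.31, edgeR adjusted p = 0.000580). The other genes that rose, named after their values were seen, were the E2F partner TFDP1 (0.25), E2F2 (0.22) and E2F1 (0.19). TFDP1 averaged 92.8 ± 2.12 CPM in shITGB5 and 77.9 ± 1.18 CPM in shcontrol libraries, and E2F1 138.3 ± 4.09 and 121.2 ± 1.46 CPM (SD, n = 3 each). E2F2 missed the threshold with DESeq2 (adjusted p = 0.0637) and without shITGB5 replicate 3, shcontrol replicate 1 or shcontrol replicate 3 (edgeR adjusted p = 0.272, 0.0688 and 0.113). The falls were LIN52 (-0.42), a DREAM subunit, and E2F7 (-0.34). LIN52 was lost without shITGB5 replicate 1 or shcontrol replicate 1 (edgeR adjusted p = 0.119 and 0.121). E2F7 was lost without shITGB5 replicate 2 or any of the shcontrol libraries (edgeR adjusted p = 0.0650 to 0.201), with no low-count filter (0.0722) and with DESeq2 (0.0678).

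Of 16 genes that regulate the activity or turnover of the cyclins, kinases and inhibitors, 2 rose, 1 fell and 13 did not pass. Their median was -0.01, and these few calls stand against 8.31% up and 6.74% down over all genes tested. CDC25A, the phosphatase that activates CDK2, lay at 78.4, 73.6 and 72.5 CPM in shITGB5 libraries, against 56.8, 55.5 and 58.1 CPM in shcontrol libraries. The groups were well separated, at 0.40 on the log2 scale (SE 0.049, edgeR adjusted p = 3.28e-09). WEE1, the kinase that opposes CDC25 phosphatases, also rose (0.23, edgeR adjusted p = 6.64e-07). SKP1, a subunit of the SCF ubiquitin ligase, fell slightly (-0.10, edgeR adjusted p = 0.0119), which did not pass once shcontrol replicate 1 was left out (edgeR adjusted p = 0.117).

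Of 20 transcription factors known to act on the cyclin D, p21 or p27 genes, 5 rose, 1 fell and 14 did not pass (median 0.02). The shares over all genes tested were 8.31% up and 6.74% down. EGR1 (0.58), JUN (0.36), KLF4 (0.26) and MYC (0.21) rose most, followed by KLF6 (0.16). JUN, which binds the CCND1 promoter as part of AP-1, averaged 199.4 ± 9.89 CPM in shITGB5 and 155.4 ± 10.0 CPM in shcontrol libraries (SD, n = 3 each, edgeR adjusted p = 8.39e-12). MYC was lost without shITGB5 replicate 2 or shcontrol replicate 1 (edgeR adjusted p = 0.0982 and 0.131), and EGR1 without shITGB5 replicate 1 or shcontrol replicate 1 (0.0806 and 0.0577). KLF4 was lost in 3 of 6 fits with a library left out (without shITGB5 replicate 1, shITGB5 replicate 2 or shcontrol replicate 1, edgeR adjusted p = 0.0767, 0.0657 and 0.0703). KLF6 was lost without shITGB5 replicate 1, shITGB5 replicate 2 or shcontrol replicate 3 (0.127, 0.0512 and 0.0908). CTNNB1, beta-catenin, was the gene that fell (-0.07, edgeR adjusted p = 0.0370), and that call was lost in all fits with a library left out except that without shITGB5 replicate 1 (edgeR adjusted p = 0.0551 to 0.124) and with no low-count filter (0.140). KLF6 and CTNNB1 were named after their values were seen.

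The p53 targets, of which CDKN1A is the best known, went both ways: of 20 tested, 3 rose, 3 fell and 14 did not pass, with a median of -0.003. Without shITGB5 replicate 1, 5 of the targets rose. In the main fit, 8.31% of all genes tested rose and 6.74% fell. The death regulator BBC3 (0.41) rose, as did SESN2 (0.25) and GADD45A (0.17), named after their values were seen, while the death receptor TNFRSF10B (-0.36), TP53INP1 (-0.33) and BTG2 (-0.27) fell (edgeR adjusted p = 1.49e-12, 2.36e-09 and 0.00492). TNFRSF10B and TP53INP1 overlap RHOBTB2 and NDUFAF6 on the other strand. BTG2 missed the threshold once shcontrol replicate 1 was left out (edgeR adjusted p = 0.0640). Huh7 cells are known to carry a mutant p53.

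Cyclins and CDKs that act outside G1 also changed in part: of 27 tested, 2 rose, 6 fell and 19 did not pass. Their median was -0.01, and the shares over all genes tested were 8.31% up and 6.74% down. CDK14, a kinase that works with cyclin Y, rose most (0.77), but it shares its strand with CLDN12, which overlaps it and has counts equal to 88.5% of its own and fell (-0.18). CDK9 (0.23), which releases paused RNA polymerase, rose as well (edgeR adjusted p = 0.000901). The mitotic cyclin CCNB1 (-0.35) and the unconventional cyclin CCNG2 (-0.28) fell most (edgeR adjusted p = 7.59e-14 and 0.00210).

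The calls in each phase list went the same way, whereas the G1 genes were called in both directions. Shares over all genes tested were 8.31% up and 6.74% down. Of 20 E2F target genes of S phase, 15 rose, 0 fell and 5 did not pass, with a median log2 change of 0.19, led by GINS2 (0.39), MCM5 (0.35), CDT1 (0.30) and MCM2 (0.29), which act in loading or firing replication origins. Of 20 G2 and M phase genes, 15 fell, 0 rose and 5 did not pass, with a median of -0.25, led by HMMR (-0.42), KIF20A (-0.41), CDC20 (-0.36) and BUB1 (-0.32), which act in spindle assembly, cytokinesis and the spindle checkpoint. GINS2, MCM2 and KIF20A overlap other expressed genes on the opposite strand. GSE1 had counts equal to 526.6% of those of GINS2, and TPRA1 43.6% of those of MCM2, and neither was called. CDC23 and BRD8, with counts equal to 97.2% and 86.3% of those of KIF20A, were called lower too. These directions were known from the earlier analysis of the same libraries. Their part in the changes of CCND1, CDK6 and RB1 was not tested.

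**Figure D5:**
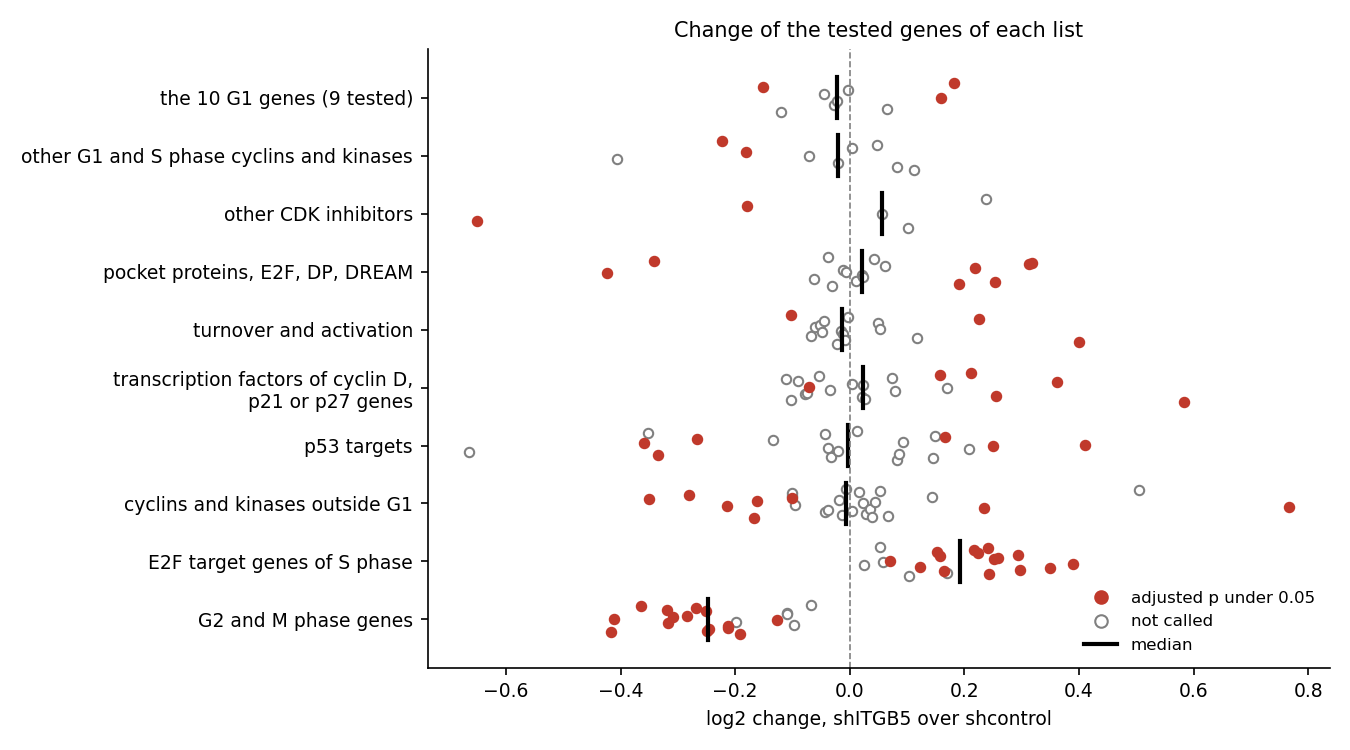
Log2 change, shITGB5 over shcontrol, of every tested gene in each list; filled points passed an edgeR adjusted p of 0.05 and the black tick is the median of the list. The 9 tested G1 genes have a median of -0.02, the E2F targets of S phase lie to the right (15 of 20 called) and the G2 and M phase genes to the left (15 of 20 called).

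For each member that passed, the 3 protein-coding genes with the most similar pattern over the 6 libraries were found among 9728 with a mean of at least 10 CPM, by the root mean square difference of centred log2 CPM. CCND1 was most like ODC1 (0.011), the first enzyme of polyamine synthesis, then PTPRM (0.012) and PYGO2 (0.014), whose own log2 changes were 0.18, 0.17 and 0.17. CDK6 was most like HMOX1 (0.020), SNRNP25 (0.022) and ZHX2 (0.024), and none of those passed the test (log2 changes 0.14, 0.14 and 0.12, edgeR adjusted p = 0.166, 0.186 and 0.159). RB1 was most like CRTC3 (0.021), ACADM (0.025) and KIF20B (0.026), of which KIF20B passed (log2 change -0.17, edgeR adjusted p = 0.0215). With 6 libraries in 2 groups, such likeness mostly restates a similar difference between the groups.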

How the data were processed

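Human Huh7 cells with an ITGB5 hairpin (shITGB5) or a control hairpin (shcontrol) gave 3 directional RNA-seq libraries each, per the labels' protocols. The deposited table holds whole-number counts per gene, although named for FPKM; its columns S and NC were read as shITGB5 and shcontrol, which the labels do not spell out. The sources used here name no aligner, counter or strand setting. The members and lists were chosen with earlier results of these data known. Genes were kept by filterByExpr, scaled by TMM and tested with the edgeR 4.0.16 quasi-likelihood test in R 4.3.3, two-sided, with Benjamini-Hochberg adjustment over 16577 genes at 0.05, after a check on simulated data. The SE and 95% interval were taken from the p-value and its degrees of freedom. CPM and FPKM were computed from the counts, TMM-scaled totals and deposited gene lengths. A count of 0 was given a limit of 3 counts, for counting error only. Beside all members and ITGB5, the rule named up to 4 called genes per list with the largest change; other list genes were named after their values were seen. Alternatives were other scalings and filters, DESeq2 1.42.0, limma 3.58.1, a fold of 1.2, the replicate number as a block, and each library left out. UTRs came from GENCODE 29, promoters from RefSeq (GRCh38.p14). Libraries of a group differed by more than counting noise (chi-square per degree of freedom 2.02 to 2.32).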

Additional observations from a re-analysis of the deposited data

How the results depend on the processing

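CCND1 rose in all 14 alternatives without a fold minimum (log2 change 0.17 to 0.20). Against a fold of 1.2 none of CCND1 (0.182), CDK6 (0.159) and RB1 (-0.1509) passed, by construction, since no member reached that fold. Members called thus became 0 up and 0 down. ITGB5 (-0.2659, SE 0.032) did not pass either, and with an estimate of about that size it could hardly have passed. All genes called became 83 up and 66 down under this stricter test, and the other lists fell to 1 up and 3 down of 32 each. DESeq2 lost RB1 (-0.1525), leaving 0 members down; the cause was not tested. With 1 library left out, log2 changes ranged from 0.114 to 0.1903 for CDK6, -0.1934 to -0.08794 for RB1, -0.1077 to 0.02939 for CCND3, -0.03883 to 0.02873 for CDKN1B and -0.07674 to 0.01169 for CDKN2C, and members called were 1 to 2 up and 0 to 1 down. CDKN1B also changed sign with no low-count filter (0.003518). Taking CPM in place of FPKM moved the CCND1 share of D-type cyclins to 94.8% in shITGB5 and 93.98% in shcontrol libraries, and the CDK6 share of CDK4 and CDK6 to 51.7% and 50.0252%, since CPM ignores gene length. Replicate numbers did not pair the libraries (deviations correlated at 0.0280, -0.000125 and -0.0174); with the replicate block, edgeR called 1271 genes up and 1032 down, against 1377 and 1118, and the same 3 members (CCND1 0.1819, CDK6 0.1593, RB1 -0.1527), and CTNNB1 was no longer called (adjusted p = 0.0757). Among lists, calls lost with a library left out stand beside each gene named. Members with few counts, CCND3 and CDKN2C, had the widest intervals.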
